A study of Rattus norvegicus with 8 samples.

Results

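Microglia are the resident macrophages of the brain, and the genes described here are those by which they and other myeloid cells are usually recognised. They were followed across 8 expression arrays of rat hippocampal slice cultures, which are thin explants kept alive in a dish. The set was listed by name as 43 rat genes, chosen with earlier results of these data known. The shares over all genes given beside its counts are therefore a description and not a test of an independent list. A gene was measured if a probe set of the array carried its symbol and no other. Of the 43, 41 were measured out of 14217 genes with such a probe set, and Spi1 and P2ry13 were not analysed here. Each gene was read from its brightest probe set, that with the highest mean of log2(intensity + 16) over the 8 arrays, and all levels and differences below are on that scale unless a fold is stated. Fold values come from it too and understate the change of dim probe sets. Probe sets differ in how well they bind their target, so levels were compared between arrays and never between genes.

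The cultures came from CA1 and CA3, 2 fields of hippocampal pyramidal neurons. Per the labels there were 3 control arrays of CA1, 3 control arrays of CA3, 1 lesion array of CA1 and 1 lesion array of CA3. All 8 held total RNA of 15 subdissected cultures at 7 days, so each array is a pool. The kind of lesion, the strain and age of the rats, and the event from which the days run were not stated in the labels. The controls carry the numbers 1 to 3 in both fields and both lesion arrays carry the number 1. Nothing says that the arrays came from separate animals or preparations, and each p-value reflects just the array-to-array spread, which may be technical.

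Microglia depend on the receptor Csf1r and its ligands for survival, and their identity is set by transcription factors such as PU.1 (encoded by Spi1) and Irf8. They sense damage through purinergic receptors and through receptors that signal by the ITAM adaptors Tyrobp and Fcer1g. When activated they raise phagocytic, lysosomal and oxidase genes. In hippocampal slice cultures they respond to the cutting of the slice and to later injury.

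The 8 arrays were alike in scale, with median intensities from 560 to 814 and correlations of log2 values between arrays of 0.834 to 0.908. The ratio of 3' to 5' signal of the Gapdh control probe sets, a sign of RNA quality, ran from 3.71 to 5.0 in the CA1 controls and from 3.75 to 3.93 in the CA3 controls. For the lesion arrays it was 4.65 (CA1) and 5.23 (CA3), the latter above every CA3 control, and the part of this ratio in the CA3 results was not tested. It was 3.71, 4.98 and 5.0 in CA1 controls 1 to 3, where controls 1 and 2 were low in these genes and control 3 was high. In CA3 controls 1 to 3 it was 3.84, 3.75 and 3.93, so control 3 had the highest control value in both fields. The part of this ratio in the differences between controls was not tested. The same ratio for the Actb control probe sets gave another order: it was 14.5 to 22.2 in the CA1 controls and 17.3 in the CA1 lesion array, and 15.0 to 21.4 in the CA3 controls and 19.8 in the CA3 lesion array, with the lowest CA3 value in control 3.

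The myeloid genes split the 8 arrays into a low and a high set that did not follow the labels alone. Control 3 and the lesion array both lay above controls 1 and 2, in both fields, for 34 of the 41 genes, a pattern held by 9.46% of all genes. The median gene stood at -1.41, -0.64 and 1.03 relative to its mean over the 8 arrays in CA1 controls 1 to 3, and at 1.37 in the CA1 lesion array. In CA3 it stood at -1.36, -0.65 and 0.73 in the controls and at 1.06 in the lesion array. The 7 genes outside the pattern were Csf1, Cx3cr1, Gpr34, Lyn, Coro1a, Cybb and Ncf1.

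**Figure D1:**
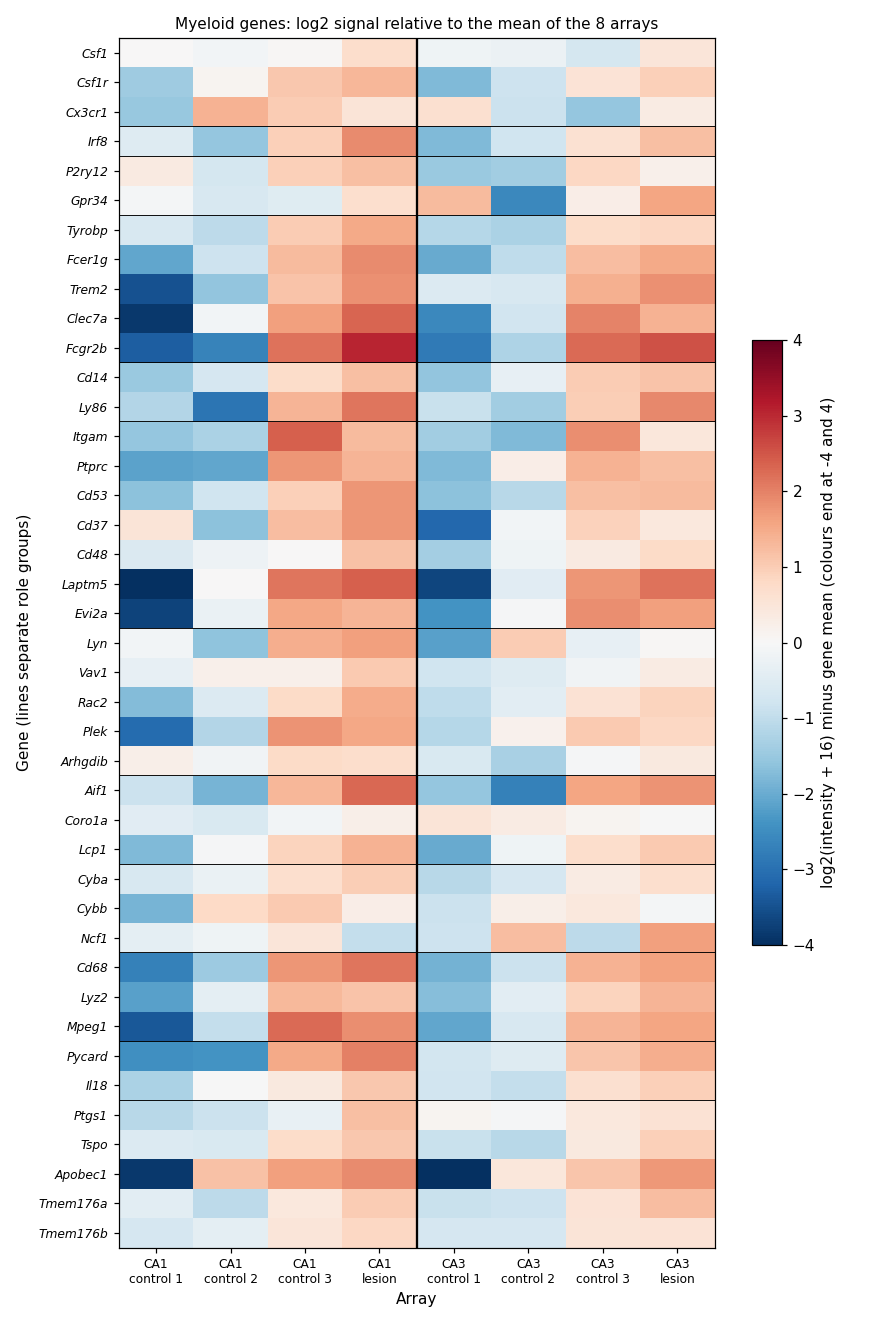
Heat map of the 41 measured genes (rows, ordered by role) on the 8 arrays (columns); the colour is log2(intensity + 16) minus the gene's mean over the arrays. Most rows are blue in controls 1 and 2 and red in control 3 and the lesion array of each field, with Csf1, Cx3cr1, Coro1a, Cybb and Ncf1 among the exceptions.

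PU.1 binds a purine-rich core spelled GAGGAA, and a neighbouring form spelled AGGAAGT shares 5 of its letters, so a longer run can hold both. Both were searched on both strands of the window from 250 bases before to 50 bases after the start of each gene in the RefSeq promoter table (GRCr8). The table held windows for 28 of the 43 genes and 27457 in all. GAGGAA was present in 57.1% of the 28 windows and in 27.5% of all windows, and AGGAAGT in 35.7% and 8.23%. At least 1 of the motifs was found in 67.9% of the myeloid windows and 31.7% of all, and both in 25% and 4.13%. The median GC content was 51.3% in the myeloid windows and 52.3% in all, so the windows were of similar base composition. A match is a description of the letters and not a site shown to be bound. Shown here are the 3 windows that hold both motifs and belong to genes that passed the test among the control numbers described next, with Mpeg1 as a gene that passed it too and has no match. Letters in capitals mark a match on either strand, in Cd53 an overlapping pair, and each sequence reads 5′ to 3′ on the gene's strand, in GRCr8. The windows are chr2:197087847-197088146, minus strand for Cd53, chr7:54797962-54798261, minus strand for Lyz2, chr4:79105569-79105868, plus strand for Tmem176a and chr1:218876644-218876943, plus strand for Mpeg1.
Cd53: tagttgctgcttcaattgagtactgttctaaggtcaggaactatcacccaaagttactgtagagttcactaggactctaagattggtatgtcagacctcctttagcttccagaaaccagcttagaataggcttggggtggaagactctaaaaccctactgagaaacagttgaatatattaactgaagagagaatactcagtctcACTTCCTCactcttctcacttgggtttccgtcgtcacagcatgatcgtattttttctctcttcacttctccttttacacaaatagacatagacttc
Lyz2: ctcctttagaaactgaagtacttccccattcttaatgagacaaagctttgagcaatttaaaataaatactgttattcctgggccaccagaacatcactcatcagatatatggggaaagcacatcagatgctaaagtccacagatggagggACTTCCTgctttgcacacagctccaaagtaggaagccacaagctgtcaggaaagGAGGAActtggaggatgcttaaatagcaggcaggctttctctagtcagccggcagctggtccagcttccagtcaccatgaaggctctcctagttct
Tmem176a: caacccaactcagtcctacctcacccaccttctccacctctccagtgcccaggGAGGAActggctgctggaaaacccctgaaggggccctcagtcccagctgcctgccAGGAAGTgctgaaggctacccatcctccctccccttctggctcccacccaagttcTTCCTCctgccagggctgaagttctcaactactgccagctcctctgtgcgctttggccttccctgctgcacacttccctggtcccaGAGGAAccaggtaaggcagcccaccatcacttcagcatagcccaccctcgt
Mpeg1: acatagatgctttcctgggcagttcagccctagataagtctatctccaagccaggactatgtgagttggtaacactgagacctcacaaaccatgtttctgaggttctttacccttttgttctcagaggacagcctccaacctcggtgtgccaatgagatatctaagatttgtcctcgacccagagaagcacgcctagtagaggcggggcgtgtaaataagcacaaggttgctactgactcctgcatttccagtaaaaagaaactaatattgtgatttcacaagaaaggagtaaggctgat

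The controls alone were compared first, since they carry the spread against which the lesion arrays are read. The test among their numbers was chosen after results of these data were known. Its p-values are therefore not those of a comparison fixed beforehand. Control 3 was the highest of the 3 controls in both fields for 35 of the 41 genes (17.2% of all genes), and control 1 the lowest in both fields for 21 (14.6%). A limma F test of the label number over the 6 controls, with the field as a term, called 20 of the 41 at an adjusted p under 0.05, where 36 had passed the filter on dim probe sets, against 2.49% of all probe sets tested. Without the filter it called 21 of 41, against 2.02%. The 20 were Csf1r, Fcer1g, Clec7a, Cd14, Ly86, Cd53, Laptm5, Evi2a, Rac2, Aif1, Lcp1, Cyba, Cd68, Lyz2, Mpeg1, Pycard, Tspo, Apobec1, Tmem176a and Tmem176b. This test leaves 2 residual degrees of freedom, and fewer when a control is left out, so higher counts from such fits do not add to its strength. It also rests on a variance model that follows the intensity: without that trend 0 members and 0 of 18625 probe sets passed. The unadjusted p was then under 0.05 for 27 of 36 members and 1772 of 18625 probe sets. With a control left out, its number keeps a single array. Calls then fell without control 3 of either field and rose without any other control. This held over all probe sets as well as over the members, so it is no trait of the myeloid genes.

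The differences between controls were large. The median gene was 5.56-fold higher in CA1 control 3 than in CA1 control 1 and 3.91-fold higher in CA3 control 3 than in CA3 control 1, while the median over all genes was 0.03 and -0.03 on the log2 scale. The range over genes ran from -0.39 (Gpr34) to 6.53 (Laptm5) in CA1 and from -2.16 (Cx3cr1) to 5.44 (Laptm5) in CA3. Control 2 stood above control 1 for 28 genes in CA1 (52.6% of all genes) and 27 in CA3 (47.9%), with medians of 0.39 and 0.61.

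No myeloid gene passed the test between the fields. In the comparison of CA3 with CA1 controls, 0 of 36 tested members passed in limma, where 98 of 18625 probe sets (0.526%) did, and 3 members had an unadjusted p under 0.05 against 8.31% of probe sets. The 3 were Coro1a, an actin-binding protein of leukocytes, Arhgdib, a signalling protein of blood cells, and Ptgs1, which encodes cyclooxygenase-1. Coro1a differed by 0.71 ± 0.19 (SE, 3 arrays in each field, adjusted p = 0.223 by limma), Arhgdib by -0.96 ± 0.34 (SE, 3 arrays in each field, adjusted p = 0.461 by limma) and Ptgs1 by 0.92 ± 0.39 (SE, 3 arrays in each field, adjusted p = 0.585 by limma). Coro1a and Ptgs1 had all CA3 controls above all CA1 controls (5.51% of all genes), and Csf1 had them all below (8.64%). The median member difference was -0.06 (all genes -0.06), and it changed sign with the array left out, from -0.59 without CA3 control 3 to 0.47 without CA1 control 3.

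In both fields the lesion array was at the top of the range. The CA1 lesion array lay above all 3 of its controls for 31 of the 41 genes (22.1% of all genes did so), the CA3 lesion array for 30 (30.8%), and both for 26 (8.86%). The median gene exceeded the mean of its controls 3.29-fold in CA1 and 2.80-fold in CA3, whereas the median over all genes was 0.00 and 0.08 on the log2 scale. In bulk RNA such as this, more cells of a type and more RNA per cell cannot be told apart.

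The step over control 3 was small. The CA1 lesion array exceeded CA1 control 3 in 31 genes (49.1% of all genes) with a median difference of 0.46, and the CA3 lesion array exceeded CA3 control 3 in 32 (55.4%) with a median of 0.31. Against control 1 the medians were 2.68 in CA1 and 2.22 in CA3, and against control 2 they were 2.04 and 1.70. A step of more than 1 on the log2 scale over control 3 was seen in 3 genes in CA1, where 8.39% of all genes had one, and in 4 in CA3, against 13.2%, so these counts do not stand apart from the background.

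**Figure D2:**
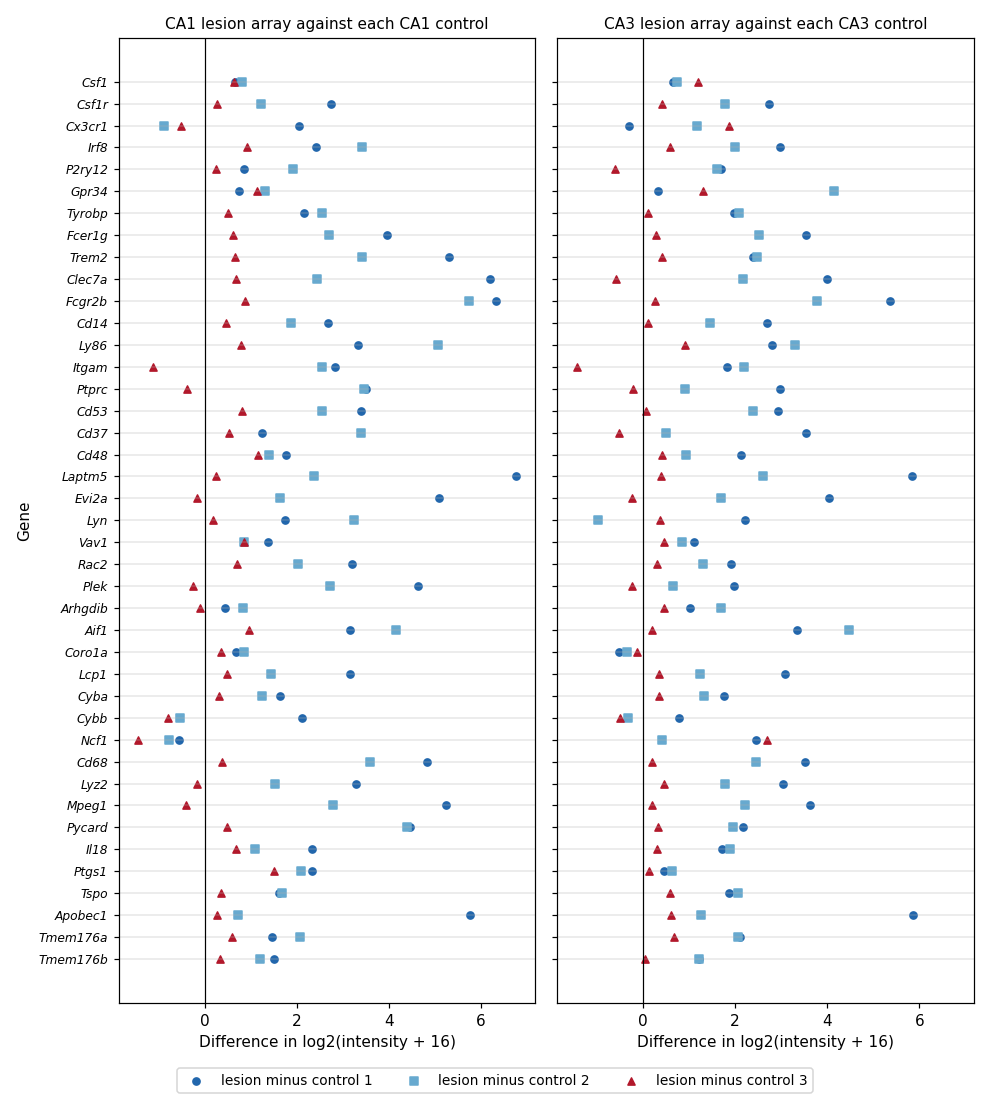
Lesion array minus each of its own 3 controls, in log2(intensity + 16), for the 41 genes in CA1 (left) and CA3 (right). Circles and squares (controls 1 and 2) lie mostly right of 1, with medians of 2.68 and 2.04 in CA1 and 2.22 and 1.70 in CA3, while triangles (control 3) gather near 0, with medians of 0.46 and 0.31.

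By limma, 0 of the 36 tested members passed for the mean lesion effect over both fields, as did 0 of 18625 probe sets (0%). The unadjusted p was under 0.05 for 22 of the 36 members and 6.41% of probe sets, and for 25 of 41 without the filter against 5.44%. The count of 22 rested on the intensity trend: without it 7 of 36 members and 1112 of 18625 probe sets had such a p. Within CA1 alone 0 passed (0% of probe sets) and 9 had an unadjusted p under 0.05 (3.63%), and within CA3 alone 0 passed (0%) and 3 did (4.68%). Without control 3 of both fields 19 of the 36 passed for the mean effect, against 0.977% of probe sets, all of them higher in the lesion arrays; without control 1 of both fields 0 passed. Control 3 was the highest control in both fields for 35 of the 41 genes, so leaving it out lowers their control level. The count of 19 therefore follows in part from which arrays were left out. The median mean lesion effect of the members was 1.55 with all arrays, 2.18 without control 3 of both fields and 0.98 without control 1 of both. Each effect sets 1 lesion array per field against 3 controls, and the model takes its spread from the controls. The result also depended on the model. With the control number as a block members did pass, on 2 residual degrees of freedom, and that fit is given with its limits in the closing section.

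Growth factor and chemokine signalling gave different orders of the arrays. Csf1, the growth factor that sustains macrophages, stood at 11.88, 11.74 and 11.90 for CA1 controls 1 to 3 with 12.55 in the CA1 lesion array, against 11.70, 11.61 and 11.15 in CA3 controls 1 to 3 and 12.36 in the CA3 lesion array. Its controls lay close together, and both lesion arrays stood above all of them. Csf1 had the smallest adjusted p of the list, with a mean lesion effect of 0.79 ± 0.22 (SE, limma adjusted p = 0.692). Of its other 3 probe sets, 1 was also above all controls in both fields (1.04), 1 hardly differed (0.10) and 1 was lower (-0.99), so its direction depended on the probe set. Csf1r, the receptor of Csf1, stood at 10.11, 11.63 and 12.58 on the CA1 control arrays, 12.85 on the CA1 lesion array, 9.74, 10.69 and 12.07 on the CA3 control arrays and 12.48 on the CA3 lesion array. Unlike its ligand it separated the controls, with control 3 over control 1 at 5.56-fold in CA1 and 5.01-fold in CA3 (limma adjusted p = 0.00148 among numbers), and its mean lesion effect was 1.53 ± 0.65 (SE, limma adjusted p = 0.771).

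Cx3cr1, the receptor for the neuronal chemokine fractalkine, is a defining microglial gene but did not follow the others. Its level was 6.91, 9.83 and 9.46 for CA1 controls 1 to 3 with 8.95 in the CA1 lesion array, against 9.07, 7.59 and 6.90 in CA3 controls 1 to 3 and 8.78 in the CA3 lesion array. The CA1 lesion array lay above 1 of its controls and the CA3 lesion array above 2, with overlapping groups. The probe set was dim, at percentile 41.3 of all probe sets.

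Irf8, a transcription factor of the myeloid lineage, stood at 9.90, 8.89 and 11.38 on the CA1 control arrays, 12.31 on the CA1 lesion array, 8.65, 9.62 and 11.03 on the CA3 control arrays and 11.63 on the CA3 lesion array. Both lesion arrays were above all their controls, and control 3 was above the other controls, with a mean lesion effect of 2.06 ± 0.68 (SE, limma adjusted p = 0.771).

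Both purinergic and related receptors were dim. P2ry12, the ADP receptor of surveying microglia, stood at 8.43, 7.36 and 9.03 for CA1 controls 1 to 3 with 9.28 in the CA1 lesion array, against 6.59, 6.66 and 8.89 in CA3 controls 1 to 3 and 8.28 in the CA3 lesion array, so that the CA3 lesion array lay below CA3 control 3. Its other probe set, just as dim, ran from 5.13 in CA1 control 2 to 10.68 in the CA1 lesion array and was above all controls in both fields (mean effect 3.41, against 0.96 for the brighter one). Gpr34, a receptor for lysophosphatidylserine, was above all controls in both lesion arrays, but its CA3 controls scattered from 5.20 to 9.02. Both genes were below the 40th percentile and were not tested in the filtered fit.

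The ITAM adaptors and the receptors grouped with them had a median lesion difference of 3.11 in CA1 and 1.86 in CA3 over 5 genes. The largest value of the 5, 4.31 in CA1, was that of Fcgr2b, which signals by an inhibitory motif and not through these adaptors. Fcer1g, the common gamma chain of Fc receptors, stood at 10.35, 11.61 and 13.70 for CA1 controls 1 to 3 with 14.31 in the CA1 lesion array, against 10.42, 11.43 and 13.68 in CA3 controls 1 to 3 and 13.96 in the CA3 lesion array. Control 3 stood over control 1 at 10.2-fold in CA1 and 9.56-fold in CA3 (limma adjusted p = 1.18e-05 among numbers), and the mean lesion effect was 2.27 ± 0.88 (SE, limma adjusted p = 0.771). The lesion arrays were highest in each field, close to control 3. Tyrobp, the adaptor DAP12 through which Trem2 signals, had a mean lesion effect of 1.57 ± 0.63 (SE, limma adjusted p = 0.771). The lipid receptor Trem2 had a mean lesion effect of 2.44 ± 1.01 (SE, limma adjusted p = 0.771), and 2.18 by its other probe set. In CA1 its controls ran from 6.25 to 10.89, in CA3 from 9.11 to 11.16. Clec7a, the beta-glucan receptor dectin-1, had its CA3 lesion array (11.54) below CA3 control 3 (12.12), and its CA1 lesion array (12.47) above all CA1 controls. Fcgr2b, the inhibitory Fc receptor, had the largest mean lesion effect of the list, at 3.72 ± 1.51 (SE, limma adjusted p = 0.771). Its levels were 5.91, 6.50 and 11.37 on the CA1 control arrays, 12.24 on the CA1 lesion array, 6.37, 7.94 and 11.47 on the CA3 control arrays and 11.73 on the CA3 lesion array, so control 3 and the lesion arrays stood far above the other 4 arrays.

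Both partners of lipopolysaccharide sensing were above all controls in both lesion arrays. Cd14 stood at 10.33, 11.14 and 12.55 for CA1 controls 1 to 3 with 13.01 in the CA1 lesion array, against 10.25, 11.49 and 12.83 in CA3 controls 1 to 3 and 12.95 in the CA3 lesion array, with a mean lesion effect of 1.55 ± 0.65 (SE, limma adjusted p = 0.771). Ly86, which encodes the secreted partner MD-1 of a Toll-like receptor relative, had a mean lesion effect of 2.70 ± 0.94 (SE, limma adjusted p = 0.771), and its lowest array was CA1 control 2 at 7.43.

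**Figure D3:**
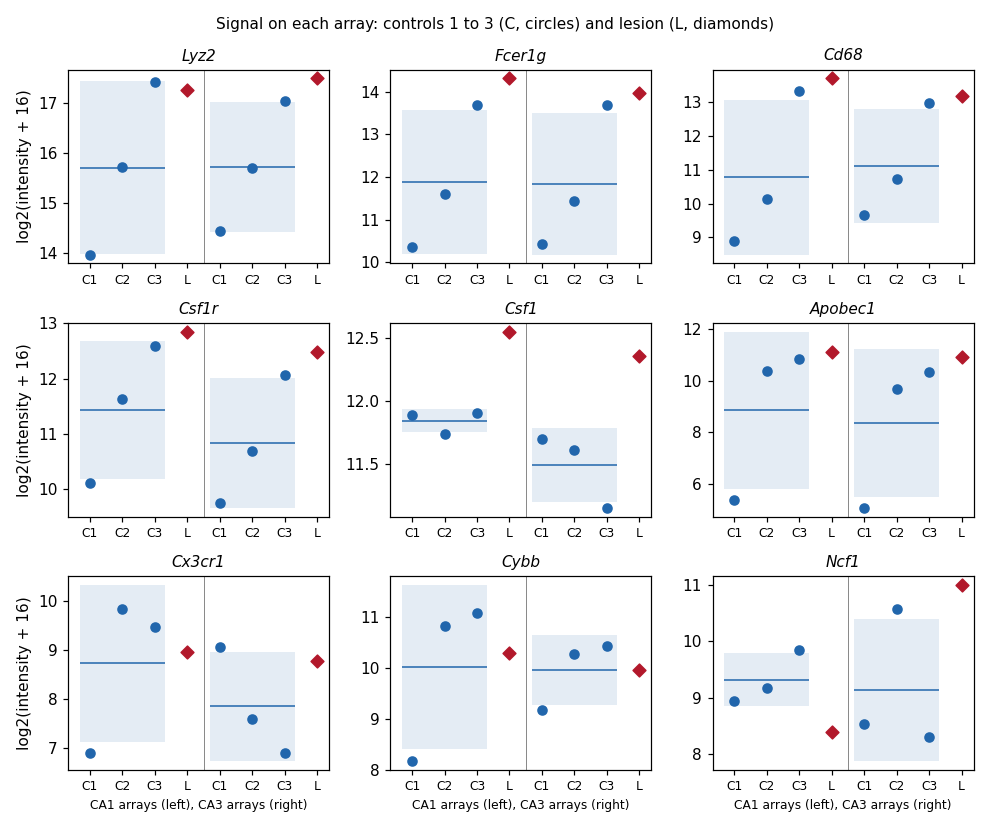
Level in log2(intensity + 16) of 9 genes on each array, with CA1 on the left and CA3 on the right of each panel; circles are controls 1 to 3, diamonds the lesion array, lines the control mean and shading 1 SD (n = 3). In Lyz2, Fcer1g, Cd68, Csf1r and Apobec1 control 3 lies near the lesion array, in Csf1 all controls lie below it, and Cx3cr1, Cybb and Ncf1 show neither arrangement in both fields.

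Among 7 surface and membrane proteins of leukocytes, control 3 was the highest control in both fields in 7 of 7 (17.2% of all genes). The lesion array was above every control in 4 genes in CA1 (22.1% of all genes) and 3 in CA3 (30.8%). Cd48, a ligand of the SLAM receptor family, stood at 11.32, 11.69 and 11.91 for CA1 controls 1 to 3 with 13.08 in the CA1 lesion array, against 10.53, 11.73 and 12.24 in CA3 controls 1 to 3 and 12.66 in the CA3 lesion array. Its lesion arrays were the highest of each field, with a mean effect of 1.30 ± 0.38 (SE, limma adjusted p = 0.771). Itgam, the integrin CD11b, and Ptprc, the phosphatase CD45, are defining leukocyte genes that were dim here, at percentiles 27.6 and 36.6. In both of them control 3 lay above the lesion array of its field: Itgam was 10.04 in CA1 control 3 against 8.92 in the lesion array, and 9.50 against 8.08 in CA3. Ptprc was 9.90 against 9.51 in CA1 and 9.54 against 9.34 in CA3. Laptm5, a lysosomal membrane protein of blood cells, had the widest range among controls, from 6.91 to 13.44 in CA1 and from 7.62 to 13.06 in CA3, and its lesion arrays stood at 13.68 and 13.46. Its other probe set gave the same arrangement over a narrower range, with a mean lesion effect of 1.85 against 3.04. Evi2a likewise ranged from 8.06 to 13.32 and from 9.38 to 13.65 in the controls, with lesion arrays at 13.15 and 13.42, below control 3. The tetraspanins Cd53 and Cd37 had mean lesion effects of 2.02 ± 0.76 (SE, limma adjusted p = 0.771) and 1.45 ± 1.06 (SE, limma adjusted p = 0.812), and in Cd37 the CA3 lesion array lay below CA3 control 3.

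Signalling proteins of blood cells gave mixed orders of the arrays. Arhgdib stood at 11.89, 11.51 and 12.42 on the CA1 control arrays, 12.33 on the CA1 lesion array, 11.02, 10.34 and 11.58 on the CA3 control arrays and 12.03 on the CA3 lesion array. The CA1 lesion array did not exceed CA1 control 3, the CA3 lesion array exceeded all its controls, and CA3 was the lower field. Rac2, a GTPase of the phagocyte oxidase and of cell movement, and Vav1, an exchange factor for Rac proteins, were above all controls in both lesion arrays, with mean effects of 1.58 ± 0.58 (SE, limma adjusted p = 0.771) and 0.92 ± 0.48 (SE, limma adjusted p = 0.796). The lesion arrays of Plek, a substrate of protein kinase C, were below control 3 in both fields. The kinase Lyn was dim and was above all controls in CA1 only, with CA3 control 2 (9.25) above the CA3 lesion array (8.27).

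The 3 actin regulators had mean lesion effects from 0.15 to 2.72. Aif1, the gene of the microglial marker Iba1, had a mean lesion effect of 2.72 ± 1.04 (SE, limma adjusted p = 0.771), with control 3 over control 1 at 4.61-fold in CA1 and 8.76-fold in CA3. A second, dim probe set of Aif1 (percentile 34.4) gave 0.14. Lcp1, which encodes the actin-bundling L-plastin, had a mean lesion effect of 1.62 ± 0.73 (SE, limma adjusted p = 0.771). Coro1a stood at 13.51, 13.33 and 13.85 for CA1 controls 1 to 3 with 14.19 in the CA1 lesion array, against 14.45, 14.28 and 14.06 in CA3 controls 1 to 3 and 13.93 in the CA3 lesion array. It was therefore above all controls in the CA1 lesion array and below all controls in the CA3 lesion array, with control levels that separated the fields and not the numbers.

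The phagocyte oxidase makes superoxide, and its 3 genes gave different orders of the arrays. Cyba, which encodes the p22 subunit, stood at 11.60, 11.99 and 12.94 for CA1 controls 1 to 3 with 13.24 in the CA1 lesion array, against 11.16, 11.60 and 12.59 in CA3 controls 1 to 3 and 12.93 in the CA3 lesion array, and was above all controls in both lesion arrays with a mean effect of 1.11 ± 0.40 (SE, limma adjusted p = 0.771). Cybb, the catalytic partner of Cyba in the membrane, stood at 8.17, 10.82 and 11.08 on the CA1 control arrays, 10.29 on the CA1 lesion array, 9.18, 10.27 and 10.44 on the CA3 control arrays and 9.96 on the CA3 lesion array. In both fields its lesion array lay above control 1 and below controls 2 and 3, and its mean effect was 0.13 ± 0.70 (SE, limma adjusted p = 0.982), with 0.16 by its other probe set. Ncf1, a cytosolic organiser of the oxidase, stood at 8.94, 9.17 and 9.84 for CA1 controls 1 to 3 with 8.40 in the CA1 lesion array, against 8.53, 10.57 and 8.31 in CA3 controls 1 to 3 and 11.00 in the CA3 lesion array. It was below all controls in the CA1 lesion array and above all of them in the CA3 lesion array. Coro1a and Ncf1 were the only members among the 41 whose lesion arrays left their controls in opposite directions, which 9.48% of all genes did. The difference between the CA3 and CA1 lesion effects passed in limma for 0 of 36 members and 0 of 18625 probe sets (0%), with 1 member, Coro1a, at an unadjusted p under 0.05 (3.09% of probe sets). The difference was -0.97 ± 0.37 for Coro1a and 2.78 ± 1.28 for Ncf1 (SE).

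Lysosomal and killing effectors had lesion medians of 2.54 in CA1 and 2.02 in CA3. Lyz2, the macrophage lysozyme, stood at 13.98, 15.74 and 17.43 for CA1 controls 1 to 3 with 17.27 in the CA1 lesion array, against 14.45, 15.71 and 17.04 in CA3 controls 1 to 3 and 17.49 in the CA3 lesion array. The CA1 lesion array fell just short of CA1 control 3, and the CA3 lesion array passed all its controls. Control 3 was over control 1 at 10.9-fold in CA1 and 6.02-fold in CA3 (limma adjusted p = 6.27e-06 among numbers, the smallest of the list), and the mean lesion effect was 1.66 ± 0.79 (SE, limma adjusted p = 0.779). Cd68, a lysosomal glycoprotein of phagocytes, was above all controls in both lesion arrays, with control 3 over control 1 at 21.8-fold in CA1 and 9.88-fold in CA3. Mpeg1, the pore-forming perforin-2, was 14.16 in CA1 control 3 and 13.75 in the CA1 lesion array, and had a control 3 over control 1 ratio of 50-fold in CA1 and 10.7-fold in CA3.

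Of the inflammasome pair, Pycard, the adaptor ASC, stood at 8.19, 8.24 and 12.15 on the CA1 control arrays, 12.64 on the CA1 lesion array, 9.90, 10.12 and 11.74 on the CA3 control arrays and 12.07 on the CA3 lesion array. Its CA1 controls 1 and 2 were low and close together, and both lesion arrays were the highest of their field, with a mean effect of 2.3 ± 0.93 (SE, limma adjusted p = 0.771). Il18, a cytokine that the inflammasome matures, was also above all controls in both, with a mean effect of 1.34 ± 0.57 (SE, limma adjusted p = 0.771).

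The 5 remaining genes, Tmem176a, Tmem176b, Tspo, Ptgs1 and Apobec1, were above all controls in both lesion arrays (8.86% of all genes). Tmem176b, a membrane protein of myeloid cells, stood at 13.96, 14.26 and 15.13 for CA1 controls 1 to 3 with 15.47 in the CA1 lesion array, against 13.98, 13.97 and 15.15 in CA3 controls 1 to 3 and 15.20 in the CA3 lesion array and had a mean effect of 0.92 ± 0.36 (SE, limma adjusted p = 0.771). Tspo, a mitochondrial membrane protein used to image glial activation, stood at 13.05, 12.98 and 14.31 on the CA1 control arrays, 14.67 on the CA1 lesion array, 12.69, 12.48 and 13.98 on the CA3 control arrays and 14.56 on the CA3 lesion array, with a mean effect of 1.37 ± 0.43 (SE, limma adjusted p = 0.771). Tmem176a had a mean effect of 1.49 ± 0.43 (SE, limma adjusted p = 0.771). Apobec1, a cytidine deaminase that edits RNA, split the controls in another way: control 1 stood at 5.36 and 5.07 in CA1 and CA3, and the other 6 arrays between 9.67 and 11.12. Control 1 was therefore the outlying array of each field for this gene, and control 2 lay with the high set. Ptgs1 had its largest lesion difference in CA1 (10.92 against controls of 8.58 to 9.42) and a small one in CA3 (10.27 against 9.65 to 10.13).

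Of the 11 members with more than 1 probe set, the second readings of Laptm5, Trem2, P2ry12 and Cybb gave mean lesion effects of the same sign as the brightest, as did those of Lyn (1.68), Aif1 (0.14) and Cyba (0.23). By these readings the effects of Cybb, Aif1 and Cyba were smaller than their SE, and the Cyba probe set lay at percentile 9.11. The second readings of Ptprc, Mpeg1 and Ptgs1 gave -0.13, -0.11 and -0.30, and all 3 probe sets lay at or under percentile 10.3. Csf1 was mixed, as described above.

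A list of 35 further myeloid genes, written from what is generally known of the lineage, was read beside the members. Of these 28 were measured, with median lesion differences of 1.62 in CA1 and 1.26 in CA3. The lesion array lay above all controls in 18 genes in each field (22.1% of all genes in CA1 and 30.8% in CA3) and in 13 in both (8.86%), and control 3 was the highest control in both fields in 21 (17.2%). The same shares over all genes apply to the lists that follow. In limma 0 passed for the mean lesion effect. Fcgr1a, the high-affinity Fc receptor, stood at 7.68, 10.34 and 11.80 on the CA1 control arrays, 12.72 on the CA1 lesion array, 9.49, 10.19 and 11.61 on the CA3 control arrays and 12.62 on the CA3 lesion array. It and Itgb2, the partner chain of Itgam, were the 2 that passed the test among control numbers, of 19 kept by the filter. Itgb2 was named after its value was seen. Fcgr3a, Il10ra and Ptpn6 were above all controls in both lesion arrays as well, with mean effects of 1.70, 3.19 and 2.20. Other genes of this list did not follow, here named after their values were seen. The microglial marker Tmem119 had lesion differences of 0.05 in CA1 and 0.49 in CA3, and Sall1, a microglial transcription factor, of -0.01 and 0.91. Olfml3 had 1.75 and -0.21, and in Cd4, which was dim, the CA3 lesion array (5.60) lay below all its controls.

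In their median, markers of macrophages at brain borders were arranged like the members. The summed intensity of 6 measured markers was 1469 to 10708 in the CA1 controls and 10828 in the CA1 lesion array, and 1919 to 10936 in the CA3 controls and 14746 in the CA3 lesion array. In 5 of 6 control 3 was the highest control in both fields. The CA1 lesion array lay above all its controls in 3 of 6 and below all of them in 1, with a median difference from control 3 of -0.04. The CA3 lesion array lay above all its controls in 5, with a median difference from control 3 of 0.45. Pf4, Stab1 and Lyve1 were above all controls in both lesion arrays. Cd163 and F13a1 were below the 40th percentile. How far border macrophages account for the member levels was not tested.

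Lymphocyte markers had another arrangement. Of 10 measured, 9 were below the 40th percentile, and their summed intensity was 2518 to 5494 in the CA1 controls, 2621 in the CA1 lesion array, 1774 to 3035 in the CA3 controls and 3211 in the CA3 lesion array. The CA3 lesion array lay above all its controls in 6 of the 10 (30.8% of all genes) and the CA1 lesion array in 1 (22.1%), and control 3 was the highest control in both fields in 2 (17.2%). Of 7 neutrophil and mast cell markers 6 were below the 40th percentile, and in 0 of 7 were both lesion arrays above all controls. Several members, such as Ptprc, Cd37, Cd48, Rac2 and Vav1, are also used by lymphocytes.

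Myelin markers followed the same arrangement. Of 8 measured, 8 had control 3 as the highest control in both fields. In the limma test among control numbers 8 passed, against 2.49% of all probe sets tested, with the limits of that test given above. Their summed intensity was 62383 to 668142 in the CA1 controls and 620224 in the CA1 lesion array, and 80802 to 503344 in the CA3 controls and 682564 in the CA3 lesion array. Mog, a protein of the outer myelin sheath, stood at 8.51, 11.05 and 12.30 on the CA1 control arrays, 12.67 on the CA1 lesion array, 9.96, 11.16 and 12.24 on the CA3 control arrays and 12.52 on the CA3 lesion array. The part of a shared source of these differences with the myeloid genes was not tested.

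Astrocyte and neuron markers had smaller lesion differences. The median lesion difference of 9 astrocyte markers was 0.22 (CA1) and 0.26 (CA3), 2 of the 9 were above all controls in both lesion arrays, and control 3 was the highest control in both fields in 6. Their summed intensity was 1064380 to 1509520 in the CA1 controls and 1438280 in the CA1 lesion array, and 960222 to 1147150 in the CA3 controls and 1554960 in the CA3 lesion array. Neuron markers were lower, by medians of -0.38 and -0.31 over 14 genes. Their summed intensity was 329394, 331844 and 249030 in CA1 controls 1 to 3 and 245455 in the CA1 lesion array. In CA3 it was 517850, 510315 and 358040 in controls 1 to 3 and 350388 in the lesion array. Control 3 and the lesion array were thus low together in both fields. In 0 of 14 was control 3 the highest control in both fields.

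**Figure D4:**
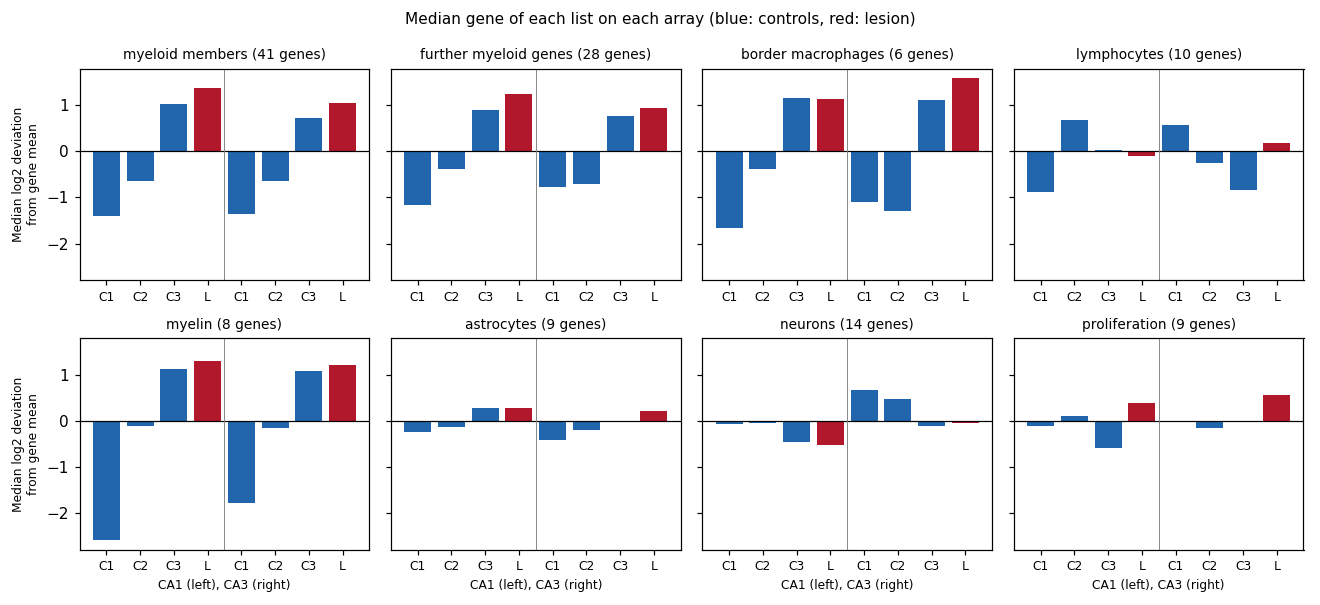
Median deviation of each gene list from the gene's mean over the 8 arrays, in log2(intensity + 16), on each array; blue bars are controls 1 to 3 (C) and red bars the lesion array (L), with CA1 on the left and CA3 on the right. Members, further myeloid genes, border macrophage and myelin markers share low controls 1 and 2 and high control 3 and lesion arrays, and lymphocyte markers do not. In astrocyte markers control 3 and the lesion array also lie above controls 1 and 2 in each field, by a smaller step.

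Of the ligands that microglial receptors read, Cx3cl1, the ligand of Cx3cr1, stood at 13.24, 12.14 and 12.73 for CA1 controls 1 to 3 with 12.24 in the CA1 lesion array, against 11.94, 11.56 and 11.69 in CA3 controls 1 to 3 and 11.08 in the CA3 lesion array. Its CA3 lesion array lay below all CA3 controls and its CA1 lesion array above 1 of 3. Clu and Apoe, lipid carriers that Trem2 binds, were above all controls in both lesion arrays, with mean effects of 0.82 and 0.47, and Clu passed the test among control numbers.

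Proliferation genes showed another arrangement. In 4 of 9 the lesion arrays were above all controls in both fields, but control 3 was the highest control in both fields in 1 of 9 and 0 passed among control numbers. Mki67, which marks dividing cells, stood at 7.70, 6.89 and 7.22 on the CA1 control arrays, 9.81 on the CA1 lesion array, 9.50, 9.14 and 8.54 on the CA3 control arrays and 10.01 on the CA3 lesion array. Its lesion arrays exceeded every control of their field, control 3 included, by at least 2.11 in CA1 and 0.51 in CA3, with a mean effect of 1.74 ± 0.68 (SE, limma adjusted p = 0.771).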

How the data were processed

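Total RNA of 8 samples was hybridised to 1-colour arrays. The intensity values are those the authors deposited, 1 per probe set, on a linear scale; the software that made them is not given in the sources used here. In the files the mean after trimming 2% at each end was about 2501 on every array (2500.92 to 2501.01), so each array had been scaled to a common mean, and differences in total RNA cannot be seen. Probe sets were named from the platform table: 20826 had 1 gene symbol, 436 several and 9780 none, and those with several or none were left out of gene counts. After removal of 57 control probe sets from 31099, log2(intensity + 16) was taken and probe sets under the 40th percentile of mean level were set aside, leaving 18625 for testing (limma 3.58.1 in R 4.3.3; 1 coefficient per group, intensity trend, Benjamini-Hochberg 0.05 over all tested, 4 residual degrees of freedom). Tables were made with Python 3.11.15 and pandas 2.3.3. The fit was tested on simulated data.

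The members, the other gene lists and the test among control numbers were chosen with earlier results of these data known. No test over a list was made. All 8 values are given for the brightest member of each role and for members whose lesion array was not above at least 2 of 3 controls in both fields. Csf1r, Fcgr2b and Tspo were given in full after their values were seen. From the other lists at most 4 genes by the smallest unadjusted p of the mean lesion effect were named, besides those named with a count. Alternatives were other pseudocounts, filters and normalization, a fit without trend, the control number as a block, and each array left out. The number of arrays limits the precision. Promoter windows came from the RefSeq table (GRCr8).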

Additional observations from a re-analysis of the deposited data

Results flagged for a closer look

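In Coro1a and Ncf1 the lesion array lay beyond every control of its field in opposite directions in CA1 and CA3, which was so for 2 of the 41 genes and for 9.48% of all genes. The CA3 minus CA1 lesion effect was -0.97 for Coro1a and 2.78 for Ncf1 on the log2 scale. In limma neither difference passed after Benjamini-Hochberg adjustment, and Coro1a alone of the pair had an unadjusted p under 0.05.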

How the results depend on the processing

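Counts of members passing, counts of lesion arrays above their controls, member medians and single-gene differences were recomputed under those of 21 alternatives that apply to each; counts by role group and for the other lists, and motif shares, were not. The median lesion effects stayed above 0 in all those run. As alternatives added after seeing the data, other pseudocounts, normalization and probe set choices gave 32 to 34 members with control 3 and the lesion array above controls 1 and 2 in both fields and 33 to 35 with control 3 highest in both. Lesion arrays above all controls in both fields numbered 25 to 36 with these and with controls left out, the 36 being without control 3 of both fields. Leaving out 1 array at a time gave 7 to 27 members passing among control numbers (20 with all arrays), 31 to 38 members above every CA1 control and 30 to 37 above every CA3 control. The median lesion effect then ran from 1.23 to 2.36 in CA1, 1.07 to 2.04 in CA3 and 1.27 to 1.85 for the mean, and the CA3 minus CA1 control median from -0.59 to 0.47. Without control 3 of both fields, 19 members passed for the mean lesion effect, 1 in CA1 (Pycard) and 1 in CA3 (Tspo), against 0 each with all arrays. Control 3 stood high in most of these genes, so the rise to 19 follows in part from which arrays were left out. Without the intensity trend 0 members and 0 of 18625 probe sets passed among control numbers. Members at an unadjusted limma p under 0.05 for the mean lesion effect then fell from 22 to 7 of 36. The cause of these changes was not tested. With the control number as a replicate block, 26 members passed for the mean lesion effect (3.74% of probe sets), 24 in CA1 (1.39%), 20 in CA3 (1.66%) and 1 (Arhgdib) for CA3 minus CA1 controls (1.92%), with 2 residual degrees of freedom. Both lesion arrays carry number 1, as does the control that was lowest in both fields for 21 members. Deviations of same-numbered controls correlated at 0.16, 0.06 and 0.31 for numbers 1 to 3, and each control correlated best with its own number, a hint from the data and not the design, so the block was not used elsewhere. Signs of uncalled single-gene differences changed for 26 members in the field comparison, 27 in the difference of lesion effects, and 3 in the mean lesion effect. Dim probe sets near background limit P2ry12, Gpr34, Itgam, Ptprc and Lyn. Low values on single control arrays also limit the sizes of differences given for brighter genes. Such values included those of CA1 control 1 for Fcgr2b (5.91), Plek (6.23), Trem2 (6.25), Clec7a (6.27) and Laptm5 (6.91), and of control 1 in both fields for Apobec1. Fcgr2b was also low in CA1 control 2 (6.50) and CA3 control 1 (6.37), and Cd37 in CA3 control 1 (5.88).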
